A study of Mus musculus with 17 samples.

Results

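The NRF2 antioxidant response was described in mouse liver through 10 genes: Nfe2l2, which encodes NRF2 itself, its target genes Nqo1, Hmox1, Gclc, Gclm, Srxn1, Txnrd1, Slc7a11 and Osgin1, and Sod2, the mitochondrial manganese superoxide dismutase. Every array probe that carried one of these symbols was taken, which gave 20 of 41174 probes, for 10 of the 21452 genes on the array. The rule for taking probes used no measured value, but the genes themselves were chosen with earlier results of these data known. The livers came from 17 male mice, each on 1 array, in 4 groups. In the chow group (n = 4) the mice ate chow for 3 months and received a gavage of dextrin-maltose, the calorie-matched control for ethanol. In the 1B group (n = 4) chow-fed mice received 1 binge, a single gavage of 5 g/kg ethanol. In the HFD group (n = 4) the mice ate a high-fat diet, with 60% of its calories as fat, for 3 months and received the dextrin-maltose gavage. In the HFD+1B group (n = 5) the high-fat diet was followed by the same ethanol gavage. Tissue was taken 9 hours after the gavage, so each group is a single time point. The labels gave the strain as C57BL/6N while the methods named C57BL/6J, and no group carried a mutation.

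NRF2 is a transcription factor that is held in the cytoplasm and marked for degradation by KEAP1 in unstressed cells. Oxidants and electrophiles modify KEAP1, NRF2 accumulates, pairs with a small MAF protein and binds the antioxidant response element in the promoters of its target genes. BACH1 is a repressor that competes for the same element and is best known for holding down Hmox1. In the liver the targets include the enzymes that make glutathione, those that reduce thioredoxin and peroxiredoxins, and quinone reductases. Hepatocytes oxidize ethanol with alcohol dehydrogenase and CYP2E1, and the latter produces reactive oxygen species. Transcript levels do not measure NRF2 activity, which is mainly set by protein stability.

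The core of the antioxidant response element, TGACNNNGC, and its variant TGAGNNNGC were searched on both strands in promoter windows from RefSeq (GRCm38.p6) that ran from 250 bases before to 50 bases after a gene start. The table held 10 windows for 8 of the 10 genes. Hmox1 and Gclc were not in it. A match to either motif was found in 6 of the 10 windows, which belonged to 6 of the 8 genes. Over all genes it was found in 9128 of 32851 windows (27.8%), with TGACNNNGC in 12.4% and TGAGNNNGC in 17.6%. No match was found in the windows of Nqo1 and Sod2. The windows began 250 bases upstream, so the search cannot tell whether these genes have an element farther away. The stretches around the upstream matches are printed below, so that the letters of the element can be compared between these genes, with the 9 matching letters in capitals.
Nfe2l2 (chr2:75704880-75704913, minus strand, match starting 240 bases upstream): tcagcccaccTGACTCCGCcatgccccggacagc
Gclm (chr3:122245408-122245446, plus strand, 134 bases upstream): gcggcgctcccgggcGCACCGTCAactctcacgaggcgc
Srxn1, distal (chr2:152105351-152105389, plus strand, 158 bases upstream): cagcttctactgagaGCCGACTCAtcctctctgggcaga
Srxn1, proximal (chr2:152105464-152105502, plus strand, 45 bases upstream): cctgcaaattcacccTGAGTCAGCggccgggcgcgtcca
Txnrd1 (chr10:82859099-82859137, plus strand, 92 bases upstream): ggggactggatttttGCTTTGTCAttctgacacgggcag
Slc7a11 (chr3:50443687-50443725, minus strand, 97 bases upstream): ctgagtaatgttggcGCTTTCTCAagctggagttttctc
Osgin1 (chr8:119437033-119437071, plus strand, 99 bases upstream): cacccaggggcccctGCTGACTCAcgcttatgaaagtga
Each sequence is written 5′ to 3′ along the gene, and matches that begin with GC lie on the opposite strand. The proximal Srxn1 match and the Osgin1 match had the same 9 letters, TGAGTCAGC, when read along the motif. A match in letters is a description of the promoter and was not measured as a binding site.

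Each array compared the Cy5-labelled liver RNA of 1 mouse with a Cy3-labelled common reference RNA, and a level is given throughout as the normalized log2 ratio of liver to reference. The number of arrays limits the precision. Between 73.9% and 86.0% of probes were well above background per array, and the median net Cy5 signal was between 43 and 138.5. Of the 20 probes of the NRF2 genes, 17 passed the filter on dim probes and were tested, and each of the 10 genes had at least 1. A difference counted as called when its p, adjusted over all 34664 probes, was at most 0.05, and a gene with several probes was represented by the brightest. All 7 hepatocyte markers with a probe passed the filter on dim probes. Their mean level relative to the chow mean was lower in every HFD mouse (-0.36 to -0.12) than in every chow mouse (-0.09 to 0.09), and lay between -0.37 and 0.35 in HFD+1B. In HFD against chow 1 of 7 was called lower, Tat (-1.36), beside 6.47% of all genes. The markers did not move together: their median difference was -0.35, while Ttr (0.51) and Apoa1 (0.26) were higher without a call. The macrophage markers had mean levels of 0.40 to 0.51 relative to the chow mean in HFD mice and 0.24 to 0.87 in HFD+1B mice, against -0.29 to 0.36 in chow mice. Of these markers, 3 of 11 were called higher in each of the HFD and HFD+1B groups, beside 4.49% and 8.91% of all genes. Hepatic stellate cell markers lay between 0.29 and 0.56 in HFD and between 0.09 and 0.77 in HFD+1B, against -0.15 to 0.13 in chow. In this list 2 and 4 of 8 were called higher, beside 4.49% and 8.91% of all genes, and Hhip was not well above background on any array. Endothelial markers were higher in every HFD mouse (0.27 to 0.46) than in every chow mouse (-0.06 to 0.15), with 2 of 8 called higher (4.49% of all genes). In HFD+1B 1 of them was called higher than in chow (8.91%) and 3 lower (7.42%). The mean of the cholangiocyte markers was higher in every HFD+1B mouse (0.21 to 0.76) than in every chow mouse (-0.14 to 0.08). Their median difference was 0.14, with 1 of 7 called higher, beside 8.91% of all genes. Neutrophil markers lay between 0.01 and 0.34 in HFD+1B and between -0.11 and 0.19 in chow. Of the 12 tested, 3 were called higher (8.91% of all genes) and 1 lower (7.42%). Erythroid markers lay between 0.10 and 0.63 in HFD+1B, against -0.14 to 0.14 in chow, with 2 of 5 called higher (8.91%). Adipocyte markers lay between 0.26 and 0.59 in HFD, against -0.30 to 0.28 in chow, with 1 of 6 called higher (4.49%). Ribosomal RNA probes stood apart in the HFD group, at -3.81 to -2.15, against -1.16 to 1.12 over the other 13 mice. The part of these shifts in the results on the NRF2 genes was not tested, and in whole liver fewer cells of a type and less RNA per cell cannot be told apart.

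The 10 genes did not move as a block, and each comparison of HFD+1B with another group had genes called higher and genes called lower. By their brightest probes, ethanol on chow left 1 gene called lower, Gclc (2.05% of all 19358 genes tested were called lower), and 0 called higher (2.08%). The diet alone left 2 higher, Nfe2l2 and Nqo1 (4.49% of all genes), and 0 lower (6.47%). With both exposures, HFD+1B against chow, 3 were higher, Nfe2l2, Hmox1 and Txnrd1 (8.91%), and 3 lower, Gclm, Srxn1 and Osgin1 (7.42%). Against HFD, 3 were higher, Hmox1, Txnrd1 and Sod2 (11%), and the same 3 were lower (8.39%). Against 1B, 3 were higher, Nqo1, Gclc and Sod2 (6.29%), and 2 lower, Gclm and Osgin1 (5.15%). The probes of Srxn1 disagreed, and with its second probe in place of the brightest each of these last 3 comparisons had 4 genes higher and 2 lower. Under a rule of a 2-fold change and an unadjusted p of 0.05 or less, Osgin1 was the single gene called in HFD+1B against chow (3.03% of all genes), HFD (2.12%) and 1B (1.91%), and none was called for ethanol on chow (1.07%) or the diet alone (1.93%).

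By the brightest probes, the median difference over the 10 genes was -0.10 for ethanol on chow, 0.04 for the diet and 0.11 for both. Medians over all genes lay between -0.01 and 0.01. Srxn1 entered these medians with -0.34, -0.08 and -0.57, where its second probe gave 0.46, 0.73 and 1.25. The medians thus depend on the choice of Srxn1 probe, and they were not computed with the second. The comparisons with chow share the 4 chow mice, and those with HFD+1B share its 5 mice. The arrays lay on 5 slides, and on the 4 slides that held both a chow and an HFD+1B array, the HFD+1B array was the higher one for Hmox1 on 4 of 4 (by 0.54 to 1.46) and the lower one for Gclm (-1.14 to -0.37) and Osgin1 (-3.06 to -0.79). With the slide as a block, no call in these 5 comparisons was lost and 1 was gained, Gclc in HFD+1B against HFD.

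Several of these calls depended on the normalization. Median centring in place of loess ended those of Nfe2l2 in HFD against chow (0.39, adjusted p = 0.171), Txnrd1 in HFD+1B against chow (adjusted p = 0.134), Gclm and Srxn1 in HFD+1B against HFD (-0.33 and -0.24, adjusted p = 0.19 and 0.319) and Gclm in HFD+1B against 1B (adjusted p = 0.341). The log2 ratios deposited by the authors ended those of Txnrd1 and Srxn1 against chow (adjusted p = 0.102 and 0.0556) and HFD (0.0573 and 0.0781), of Sod2 against HFD (0.0611) and of Gclm against 1B (0.102). The Cy5 signal without the reference left Osgin1 as the single gene called, in HFD+1B against chow and against 1B, and Nfe2l2 in HFD then differed from chow by 0.29 (adjusted p = 0.575). When the ribosomal RNA signal entered the model, none of the 10 was called in HFD against chow or in HFD+1B against HFD, where the difference was 0.16 for Hmox1, 0.27 for Txnrd1, -0.15 for Srxn1 and -1.20 for Gclm (adjusted p = 0.997, 0.992, 0.997 and 0.333). The low ribosomal RNA signal and the HFD group cannot be told apart.

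**Figure D1:**
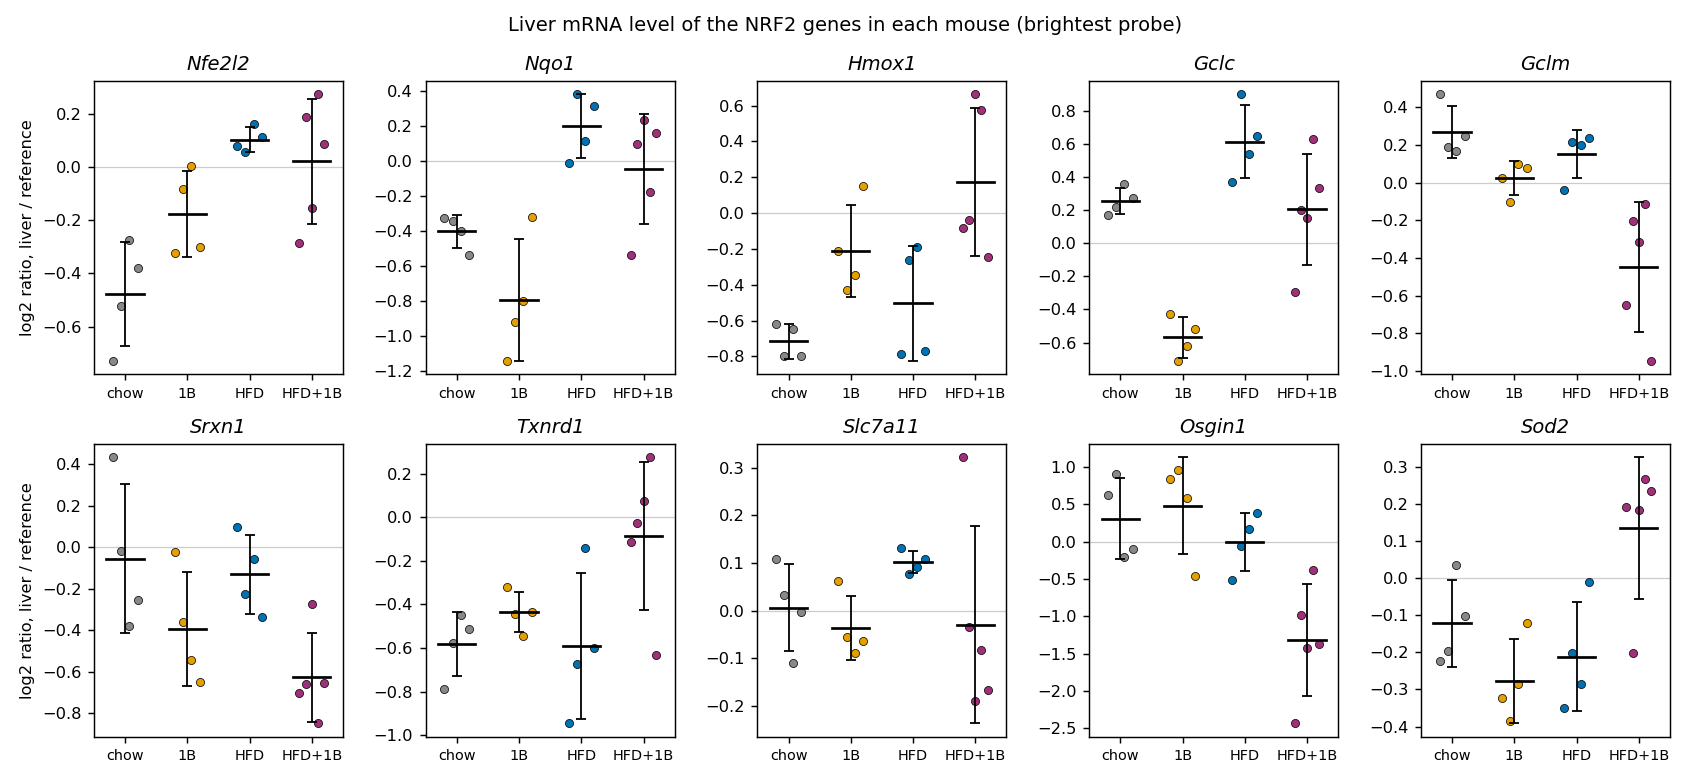
Level of the brightest probe of each of the 10 genes in each mouse (points, log2 ratio of liver to reference RNA, 4 mice per group and 5 in HFD+1B), with the group mean (bar) and SD (whiskers); the vertical scale differs between panels. Hmox1 was higher in all HFD+1B mice than in all chow mice, while Gclm and Osgin1 were lower in all of them.

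The transcription factor gene Nfe2l2 was higher than in chow in both HFD and HFD+1B, while the diet difference among ethanol-treated mice was not called. Its levels were -0.73, -0.52, -0.27 and -0.38 (chow mice), -0.32, -0.08, 0.00 and -0.30 (1B mice), 0.08, 0.05, 0.16 and 0.11 (HFD mice) and -0.28, 0.19, -0.15, 0.27 and 0.09 (HFD+1B mice). Every HFD mouse lay above every chow mouse, as did 4 of the 5 HFD+1B mice. The difference was 0.58 ± 0.13 (SE; 1.49-fold, adjusted p = 0.00757) in HFD and 0.50 ± 0.12 (1.41-fold, adjusted p = 0.00779) in HFD+1B. Ethanol on chow gave 0.30 ± 0.13 (adjusted p = 0.264), which was not called. Both other Nfe2l2 probes were called in HFD and HFD+1B against chow, at 0.56 and 0.46 for HFD, and at 0.44 and 0.47 for HFD+1B. HFD+1B exceeded 1B by 0.20 ± 0.12 (adjusted p = 0.378), and by 0.13 and 0.14 with the other probes (adjusted p = 0.612 and 0.623). On the 3 slides that held both a chow and an HFD array, the HFD mouse was higher by 0.54 to 0.81. Because HFD is also the group with the low ribosomal RNA signal, a fit with that signal as a covariate was made: the difference between HFD and chow was 0.72 there, with an adjusted p of 0.782.

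Nqo1 encodes a quinone reductase and is often read as a marker of NRF2 activity. It was at -0.32, -0.34, -0.40 and -0.53 (chow mice), -1.14, -0.92, -0.80 and -0.32 (1B mice), -0.01, 0.38, 0.11 and 0.32 (HFD mice) and -0.54, 0.10, 0.23, -0.17 and 0.16 (HFD+1B mice). The HFD mice were all above the chow mice, and 3 of the 4 1B mice were below them. Nqo1 was 1.52-fold higher on the diet alone (0.60 ± 0.17, adjusted p = 0.0329) and exceeded 1B in HFD+1B by 0.75 ± 0.16 (1.68-fold, adjusted p = 0.00618). The second of these is the diet difference among ethanol-treated mice. Ethanol gave -0.39 ± 0.17 on chow (adjusted p = 0.291) and -0.24 ± 0.16 on the high-fat diet (adjusted p = 0.322), neither of which was called. The HFD call was lost when any of the mice chow 1, chow 2, chow 3, chow 4, HFD 2, HFD 3 or HFD 4 was left out (adjusted p = 0.0540 to 0.0936), and with ribosomal RNA as a covariate the difference was 0.57 with an adjusted p of 0.92. Between HFD+1B and chow the difference of 0.36 was not called (adjusted p = 0.166), but it was without HFD+1B 1, the lowest mouse of its group (0.48, adjusted p = 0.0349).

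Hmox1, the heme oxygenase that breaks down heme, was higher after the binge on the high-fat diet. The chow mice were at -0.62, -0.80, -0.65 and -0.80, the 1B mice at -0.21, -0.43, -0.35 and 0.15, the HFD mice at -0.79, -0.26, -0.19 and -0.77, and the HFD+1B mice at -0.08, -0.04, 0.66, 0.58 and -0.24. All 1B and all HFD+1B mice lay above all chow mice, and the HFD mice formed a higher and a lower pair. HFD+1B exceeded chow by 0.89 ± 0.19 (1.85-fold, adjusted p = 0.00288) and HFD by 0.68 ± 0.19 (1.60-fold, adjusted p = 0.0175). Against HFD the adjusted p was 0.0518 to 0.0665 without HFD 1, HFD 4 or HFD+1B 4. On chow the ethanol difference was 0.51 ± 0.20 and was not called (adjusted p = 0.213). The other Hmox1 probe was well above background on 8 of 17 arrays, with a median net signal of 15 against 616.5 for the first, and its differences lay between -0.04 and 0.12, none called.

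Glutathione synthesis starts with glutamate-cysteine ligase, which has a catalytic subunit encoded by Gclc and a modifier subunit encoded by Gclm. Gclc was at 0.17, 0.22, 0.36 and 0.27 (chow mice), -0.43, -0.71, -0.62 and -0.52 (1B mice), 0.37, 0.90, 0.54 and 0.65 (HFD mice) and -0.29, 0.20, 0.15, 0.63 and 0.33 (HFD+1B mice). The 1B mice were below every chow mouse and below every HFD+1B mouse. Gclc was the single NRF2 gene called after ethanol on chow, where it fell by 0.82 ± 0.15 (1.77-fold lower, adjusted p = 0.00373), and HFD+1B exceeded 1B by 0.77 ± 0.14 (1.71-fold, adjusted p = 0.00204). Ethanol on the high-fat diet gave -0.41 ± 0.14 with an adjusted p of 0.0545. That difference was called with the slide as a block (adjusted p = 0.0478), and without HFD 1 or HFD+1B 4 (-0.51 to -0.49, adjusted p = 0.0162 to 0.0340). Between HFD and chow the difference was 0.36 ± 0.15 (adjusted p = 0.14).

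Gclm was lowest in HFD+1B. Its levels were 0.47, 0.19, 0.17 and 0.25 (chow mice), 0.02, -0.10, 0.10 and 0.08 (1B mice), -0.04, 0.22, 0.20 and 0.24 (HFD mice) and -0.65, -0.20, -0.32, -0.11 and -0.95 (HFD+1B mice). The HFD+1B mice lay below all 12 mice of the other groups. They differed from chow by -0.71 ± 0.14 (1.64-fold lower, adjusted p = 0.00152), from HFD by -0.60 ± 0.14 (1.52-fold lower, adjusted p = 0.0062) and from 1B by -0.47 ± 0.14 (1.39-fold lower, adjusted p = 0.0367). The second, dimmer Gclm probe was called against chow (-0.52) and against HFD (-0.38), and not against 1B (-0.18, adjusted p = 0.394). The call against 1B was also lost without 1B 1, 1B 2, 1B 3, 1B 4, HFD+1B 1 or HFD+1B 5 (adjusted p = 0.0517 to 0.0995). After ethanol on chow Gclm differed by -0.24 (adjusted p = 0.53), and by -0.34 with the second probe (adjusted p = 0.165), neither called. By both probes every 1B mouse lay below every chow mouse. The genes of the 2 subunits had their lowest mean levels in different groups, Gclc in 1B and Gclm in HFD+1B.

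Slc7a11, the cystine transporter that supplies cysteine for glutathione, was near the limit of detection. Of its 4 probes, 3 were well above background on at most 1 array and were not tested. The remaining probe was well above background on 11 of 17 arrays, with a median net Cy5 signal of 16, and its group means lay between -0.04 and 0.10. None of its differences was called, and the widest was -0.13 between HFD+1B and HFD (95% confidence interval -0.33 to 0.07).

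Txnrd1 encodes the cytosolic thioredoxin reductase. It was at -0.79, -0.58, -0.45 and -0.51 (chow mice), -0.32, -0.44, -0.55 and -0.43 (1B mice), -0.95, -0.67, -0.14 and -0.60 (HFD mice) and -0.11, -0.02, 0.07, 0.28 and -0.63 (HFD+1B mice). Of the 5 HFD+1B mice, 4 lay above every mouse of the other groups, and HFD+1B 5 was among the chow values. Txnrd1 was higher in HFD+1B than in chow by 0.50 ± 0.16 (1.41-fold, adjusted p = 0.0463) and than in HFD by 0.51 ± 0.16 (1.42-fold, adjusted p = 0.0377). Both calls were near the threshold. The call against chow was lost when any of 14 of the 17 mice was left out, all but HFD 1, HFD 3 and HFD+1B 5 (adjusted p = 0.0526 to 0.132). The call against HFD was lost without HFD 1, HFD 2, HFD 4, HFD+1B 1, HFD+1B 2, HFD+1B 3 or HFD+1B 4 (0.0562 to 0.118). Without HFD+1B 5 the difference from 1B was also called (0.49, adjusted p = 0.0352, against 0.35 and 0.207 with all mice).

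Srxn1 encodes sulfiredoxin, which restores over-oxidized peroxiredoxins, and its 3 probes gave opposite answers. The brightest probe, A_51_P330125, was at 0.44, -0.02, -0.38 and -0.25 (chow mice), -0.02, -0.36, -0.54 and -0.65 (1B mice), 0.10, -0.23, -0.06 and -0.33 (HFD mice) and -0.70, -0.66, -0.27, -0.85 and -0.65 (HFD+1B mice). By this probe Srxn1 fell in HFD+1B, by 0.57 ± 0.16 relative to chow (adjusted p = 0.0231) and by 0.50 ± 0.16 relative to HFD (adjusted p = 0.0421). The first call was lost without chow 1, chow 2 or HFD+1B 4 (adjusted p = 0.0559 to 0.0905), and the second without chow 2, 1B 2, HFD 1, HFD 2, HFD 3, HFD+1B 1, HFD+1B 2, HFD+1B 4 or HFD+1B 5 (0.0505 to 0.11). The second probe, A_52_P297032, was at -0.75, -0.81 and -0.59 in chow 2, chow 3 and chow 4, with no value in chow 1 because the spot was flagged, at -0.14, -0.23, -0.46 and -0.19 in 1B, at 0.24, 0.00, 0.09 and -0.27 in HFD, and at 0.33, 0.89, 0.47, 0.46 and 0.52 in HFD+1B. By this probe the 5 HFD+1B mice lay above all other mice, and Srxn1 was higher than in chow by 1.25 (2.38-fold, adjusted p = 8.52e-06), than in HFD by 0.52 (adjusted p = 0.00737) and than in 1B by 0.79 (adjusted p = 0.00057). The diet alone gave a rise of 0.73 (adjusted p = 0.00357).

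The third Srxn1 probe, A_52_P593200, sided with the second in direction. It was dim, with a median net Cy5 signal of 70, against 3298 for the brightest and 2051 for the second. It was higher than in chow by 0.73 in HFD (adjusted p = 0.0248) and by 1.20 in HFD+1B (adjusted p = 0.000243), and HFD+1B exceeded 1B by 0.99 (adjusted p = 0.00243). Between HFD+1B and HFD its difference of 0.46 was not called (adjusted p = 0.0959). Across the 16 mice with both values the second and the third probe had a Pearson correlation of 0.90, while the brightest had -0.38 with the second and -0.50 with the third over mice that share group differences. After the group means were subtracted, these 3 correlations were 0.69, 0.35 and -0.19, so the opposite course lay mainly between the groups. The probe sequences are 60 bases long, and the last 13 bases of the third are the first 13 of the brightest, so these probes, which disagree, overlap on the transcript. Their adjoining ends are printed with the shared bases in capitals.
End of the third probe: ctttatgatagcactatATGAACTATGTAC
Start of the brightest probe: ATGAACTATGTACtaggaagtaaaggaaaa
The brightest probe thus gave Srxn1 among the genes that fell and the mean of the 3 probes gave it among those that were higher (0.59 against chow, adjusted p = 0.00191), and no direction is given here for the gene as a whole.

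**Figure D2:**
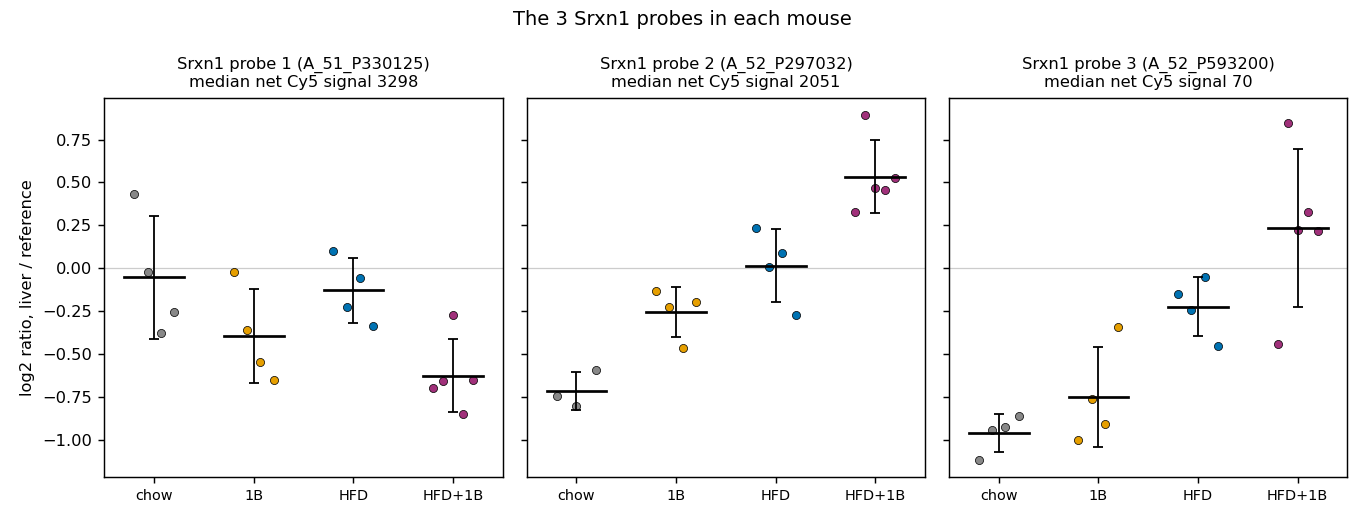
Level of the 3 Srxn1 probes in each mouse (points, log2 ratio of liver to reference RNA) with group mean (bar) and SD (whiskers), on a common vertical scale. From chow to HFD+1B the mean went from -0.05 to -0.63 by the first probe, from -0.71 to 0.53 by the second and from -0.96 to 0.24 by the third.

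Osgin1, an oxidative stress-induced growth inhibitor, had the largest difference of the 10 genes. It was at 0.62, 0.90, -0.20 and -0.09 (chow mice), 0.84, 0.96, 0.59 and -0.47 (1B mice), -0.52, -0.06, 0.17 and 0.39 (HFD mice) and -2.44, -0.99, -1.43, -0.38 and -1.37 (HFD+1B mice). All HFD+1B mice lay below all chow mice, while 1 of them was above the lowest HFD mouse and above the lowest 1B mouse. Osgin1 was 3.09-fold lower in HFD+1B than in chow (-1.63 ± 0.36, adjusted p = 0.00417), 2.49-fold lower than in HFD (-1.32 ± 0.36, adjusted p = 0.0164) and 3.49-fold lower than in 1B (-1.80 ± 0.36, adjusted p = 0.00344). The second Osgin1 probe gave -1.45, -1.21 and -1.63, each called. Without HFD 4 the adjusted p against HFD was 0.0583. Ethanol on chow gave 0.17 ± 0.38 and the diet alone -0.31 ± 0.38, neither called.

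Sod2, which removes superoxide in mitochondria and is also induced through NF-kappaB, was higher in HFD+1B than in either group with a single exposure. Its levels were -0.22, -0.20, 0.03 and -0.10 (chow mice), -0.32, -0.39, -0.29 and -0.12 (1B mice), -0.35, -0.20, -0.28 and -0.01 (HFD mice) and 0.19, -0.20, 0.18, 0.27 and 0.24 (HFD+1B mice). Of the HFD+1B mice, 4 lay above all others, and HFD+1B 2 was level with the chow mice. The difference was 0.35 ± 0.10 from HFD (1.27-fold, adjusted p = 0.0284) and 0.41 ± 0.10 from 1B (1.33-fold, adjusted p = 0.0166). With the Cy5 signal alone these differences were 0.0093 and 0.089 (adjusted p = 0.99 and 0.961). The difference of 0.26 from chow was not called (adjusted p = 0.115), but it was without HFD+1B 2 (0.34, adjusted p = 0.0201). The call against HFD was lost without HFD 1, HFD 2, HFD 3, HFD+1B 1, HFD+1B 3, HFD+1B 4 or HFD+1B 5 (adjusted p = 0.0507 to 0.0778), and that against 1B without 1B 2 (0.0581).

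Whether the ethanol difference depended on the diet was tested as an interaction. None of the 10 genes was called by limma, against 4.29% of all genes (by the 2-fold rule Osgin1 was, against 2.25%). Sod2 came nearest, with an ethanol difference that was higher on the high-fat diet by 0.50 ± 0.15 (adjusted p = 0.0691). It was called in 4 of 29 alternatives, over which its value ranged from -0.03 to 0.87. These 4 were the slide as a block (0.57, adjusted p = 0.0399), the replicate number as a block (0.48, adjusted p = 0.0443), median centring (0.87, adjusted p = 0.0172) and leaving out HFD+1B 2 (0.59, adjusted p = 0.0232). For Osgin1 the value was -1.49 ± 0.52 (adjusted p = 0.112, 95% confidence interval -2.58 to -0.40), and for Nfe2l2 -0.38 ± 0.17 (adjusted p = 0.228). For Hmox1 it was 0.17, with an interval from -0.40 to 0.74, so that a larger or a smaller ethanol difference on the high-fat diet was not detectable at this precision. For Gclc it was 0.41 ± 0.21 (adjusted p = 0.279), but with median centring, the 1 call in 29 alternatives, it was 0.74 (adjusted p = 0.0493). The differences of Gclm, Txnrd1 and Hmox1 after ethanol on the high-fat diet were not shown to differ from those on chow.

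**Figure D3:**
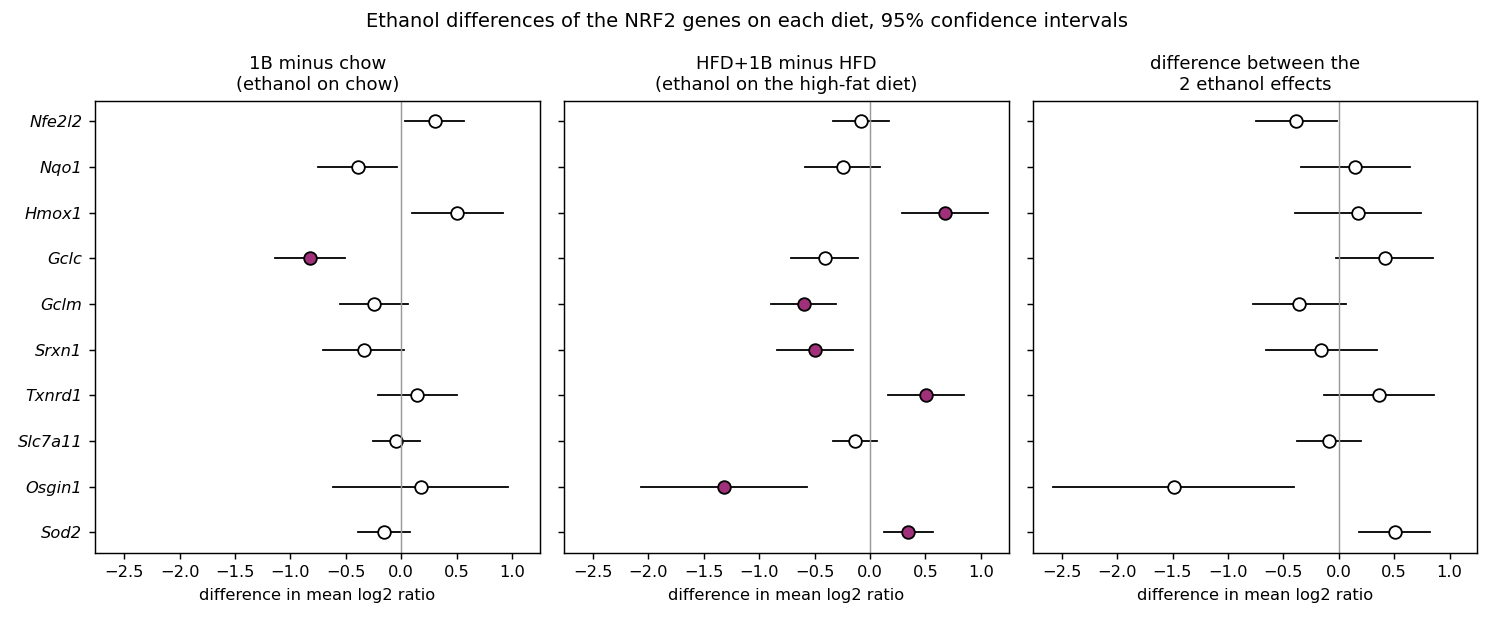
Difference in mean log2 ratio after ethanol for each gene (points, brightest probe) with 95% confidence intervals (lines), on chow, on the high-fat diet, and the difference between these effects; filled points had an adjusted p of 0.05 or less. On chow the filled point is Gclc, on the high-fat diet Hmox1, Gclm, Srxn1, Txnrd1, Osgin1 and Sod2 are filled, and no point is filled for the difference between diets.

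The regulators and partners of NRF2 were followed as a list of 11 genes, all tested. In HFD+1B against chow 3 rose and 1 fell, beside 8.91% of all genes higher and 7.42% lower. The small MAF gene Maff rose by 1.65 ± 0.19 (adjusted p = 1.77e-05), from a mean of -1.16 in chow to 0.48, and another, Mafk, by 0.70 ± 0.16, while the third, Mafg, fell by 0.54 ± 0.16. Sqstm1, which encodes the autophagy receptor p62 that binds KEAP1, rose by 0.55 ± 0.14. Keap1 was not among the genes called in that comparison. Bach1, the repressor, had the 1 interaction called in the list, 1.93 ± 0.26 (adjusted p = 0.00185), beside 4.29% of all genes. Its group means were 0.26 (chow), -0.49 (1B), -1.11 (HFD) and 0.08 (HFD+1B), a fall after ethanol on chow (-0.75) and on the diet alone (-1.36), and a rise of 1.19 when ethanol followed the diet. The HFD mice, at -1.25 to -0.93, lay below all mice of the other groups, as they did for ribosomal RNA.

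Among 32 other NRF2 target genes, 9 rose and 5 fell in HFD+1B against chow, beside 8.91% and 7.42% of all genes. The largest rises were of Pgd (2.10 ± 0.25), an NADPH-producing enzyme of the pentose phosphate pathway, Cbr3 (1.39 ± 0.27), a carbonyl reductase, and Me1 (0.97 ± 0.28), the cytosolic malic enzyme. The largest falls were of Cyp2a5 (-2.53 ± 0.32), a cytochrome P450, Gstp1 (-1.23 ± 0.24), a glutathione S-transferase, and Abcc2 (-0.60 ± 0.12), a canalicular exporter of conjugates. For Pgd and Me1 the 1B mean was at least as high as the HFD+1B mean, at 0.31 and 0.15 beside 0.08 and -0.05. For Cyp2a5 all 3 exposed groups lay low, at -0.89, -0.71 and -1.22, beside 1.31 in chow, and its interaction of 1.69 ± 0.46 was called, as was that of Abcc2 (0.89 ± 0.17), the 2 called in the list beside 4.29% of all genes. In this list 3 rose and 4 fell after ethanol on chow, beside 2.08% and 2.05% of all genes, and 4 rose and 4 fell on the diet alone, beside 4.49% and 6.47%. In HFD+1B against HFD 3 rose and 1 fell, which was no more than the 11% and 8.39% of all genes, and against 1B 4 rose and 1 fell, beside 6.29% and 5.15%.

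Of the other antioxidant enzymes, 28 of 29 were tested, and 5 were higher and 5 lower in HFD+1B against chow, beside 8.91% and 7.42% of all genes. Gpx3, the extracellular glutathione peroxidase, rose by 2.28 ± 0.28, Sod3, the extracellular superoxide dismutase, by 0.95 ± 0.26, and Gpx4, which reduces lipid peroxides, by 0.72 ± 0.15. Msrb1, a methionine sulfoxide reductase, fell by 0.57 ± 0.09, Prdx4, a peroxiredoxin of the endoplasmic reticulum, by 0.47 ± 0.12, and Sod1, the cytosolic superoxide dismutase, by 0.42 ± 0.12. Of the 3 superoxide dismutase genes, Sod3 rose, Sod1 fell and Sod2 was not called in that comparison. Txnrd2, the mitochondrial thioredoxin reductase, had the 1 interaction called in this list (4.29% of all genes), 0.63 ± 0.16, with its lowest mean, -0.48, in HFD.

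Lists that share targets with the NRF2 genes were described beside them, again for HFD+1B against chow, where 8.91% of all genes were higher and 7.42% lower, and for the interaction, where 4.29% were called. Of 14 ATF4 target genes, which respond to amino acid shortage and endoplasmic reticulum stress and overlap with NRF2 at Slc7a11, 7 rose and 0 fell in HFD+1B against chow, led by Ddit4 (2.30 ± 0.29), Chac1 (2.02 ± 0.30), a glutathione-degrading enzyme, and Fgf21 (1.57 ± 0.32). Interactions were called for Ddit4 (2.60 ± 0.41), Chac1 (1.81 ± 0.43) and Slc3a2 (0.94 ± 0.18), the heavy chain partner of the cystine transporter, among 4 genes in all. Of 14 NF-kappaB target genes, 7 rose and 0 fell, with the neutrophil chemokine Cxcl1 (2.61 ± 0.39), Bcl3 (1.30 ± 0.23) and Ier3 (1.24 ± 0.25, well above background on 9 arrays) in front, and Nfkbia had a called interaction of 0.82 ± 0.22. In the heme list of 13 genes, 1 rose, Hpx (1.57 ± 0.26), the plasma heme carrier, and 4 fell, among them the first enzyme of heme synthesis, Alas1 (-1.28 ± 0.23), and the later enzymes Cpox (-0.94 ± 0.14) and Alad (-0.47 ± 0.11).

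**Figure D4:**
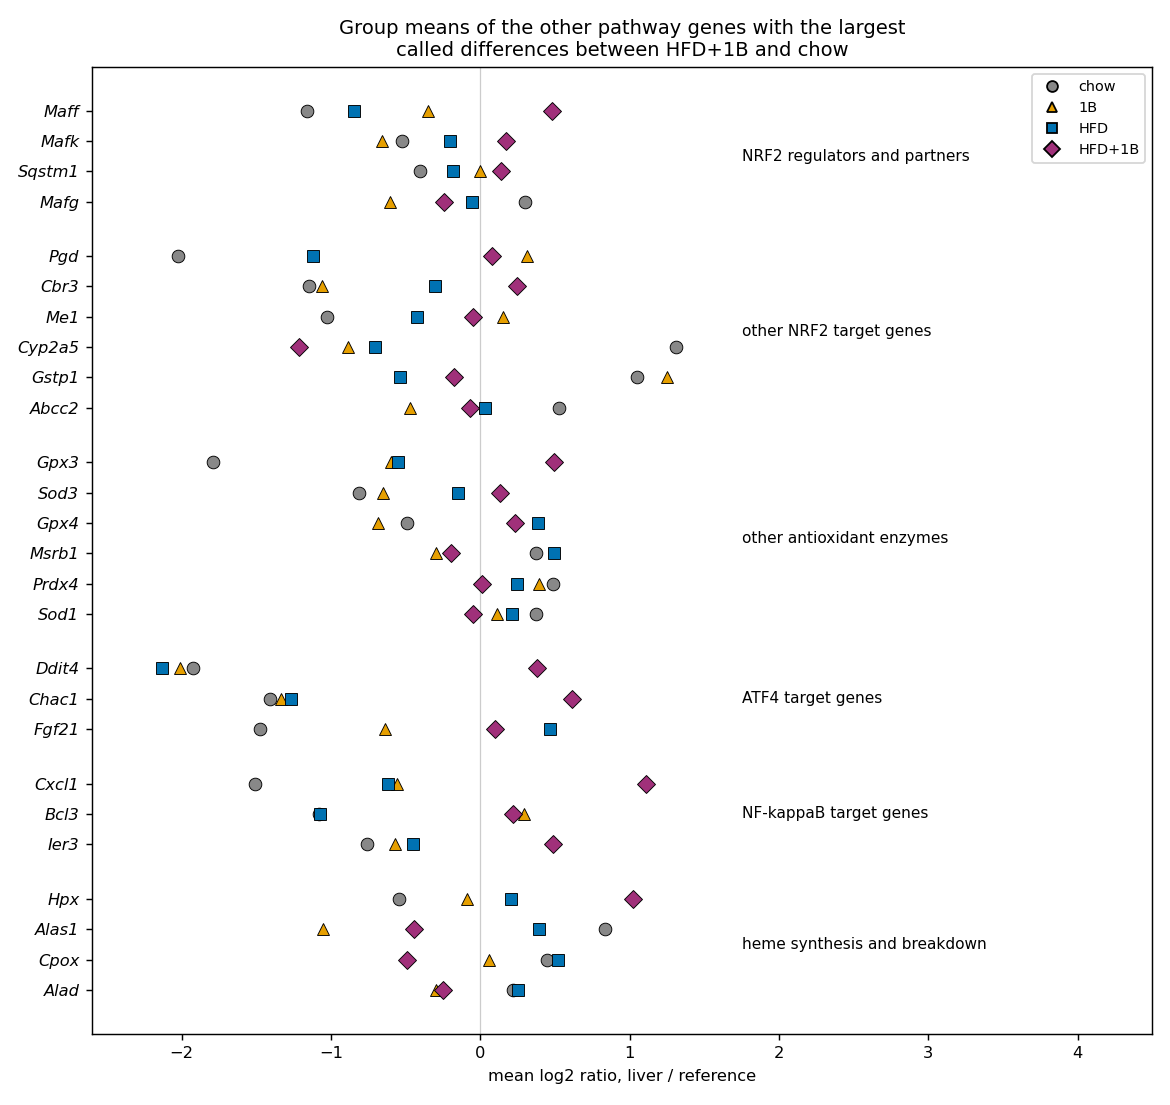
Mean log2 ratio of liver to reference RNA in each group (symbols) for the genes with the largest called rises and falls between HFD+1B and chow in each list of related genes. Ddit4 and Chac1 have their HFD+1B mean apart from the other 3 groups, while Pgd and Alas1 have the 1B mean farthest from chow.

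The NRF2 genes did not follow a common course across the 17 mice. By the brightest probes, the 45 pairs of the 10 genes had Pearson correlations from -0.69 to 0.80 with a median of -0.04, over mice that share group differences. Of these pairs, 5 were above 0.5 and 6 below -0.5. Among the latter were Srxn1 with Nfe2l2, Hmox1, Txnrd1 and Sod2, which had 0.62, 0.63, 0.47 and 0.33 with the second Srxn1 probe. The pairs of Srxn1 with Gclm and Osgin1 changed the other way, from 0.59 and 0.52 to -0.66 and -0.65. The highest were Hmox1 with Txnrd1 (0.80, and 0.65 after the group means were subtracted), Nqo1 with Gclc (0.79 and 0.39) and Gclm with Osgin1 (0.75 and 0.43). By the brightest Gclm probe, the pairs of Gclm with Hmox1 and with Txnrd1 changed sign within groups. They were at -0.43 and -0.31 over all mice and at 0.61 and 0.62 after subtraction of the group means. With the second Gclm probe they were at -0.56 and -0.62 over all mice and at 0.21 and -0.24 after subtraction, so the Txnrd1 pair kept its sign. The pair of Gclm with Osgin1 was then at 0.48 and -0.01. The 5 genes whose levels were most like those of Nqo1 among 15237 genes well above background on all arrays were Snai2 (r = 0.92), Mpped2, Fbxl8, Apoe and 1500004A13Rik (each 0.91). Gclc was the NRF2 gene nearest to Nqo1, at rank 176.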

How the data were processed

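Liver RNA of 17 mice was measured on 2-colour Agilent arrays, with Cy5 for the mouse and Cy3 for a common reference (named in the labels as assorted mouse RNA, with liver as its tissue) and no dye swap. The deposited scanner files hold spot intensity values from Feature Extraction 11.5.1.1. The deposited table holds log2 ratios that the authors exported from GeneSpring, equal to the files' dye-normalized ratios to rounding. The genome build used for the probes was not given in the sources used here. Here, median signals were background-corrected (normexp, offset 50), loess-normalized within arrays, with weight 0 for control and flagged spots, and averaged per probe in limma 3.58.1 (R 4.3.3). Outlier spots were set missing (3707 of 589288 values). Probes well above background in Cy5 on at least 4 of 17 arrays, with a value in every group, were kept (34664). A limma model of 4 group means (13 residual degrees of freedom) gave 6 comparisons, with Benjamini-Hochberg adjustment over all probes, and was tested on simulated data. The brightest tested probe stands for a gene.

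Samples were grouped by their labels. Whether the mice of a group were housed or processed independently was not stated, so p-values measure the spread between these mice. Slides held arrays of 3 or 4 groups. Alternatives were no background subtraction, median centring, the deposited log2 ratios, Cy5 alone, other filters, probe means, slide or replicate number as a block, a ribosomal RNA covariate, the analysis of variance with the Tukey test named in the methods, a 2-fold rule, and leaving out each mouse. The second Srxn1 probe was added after seeing the data. The genes and lists were chosen with earlier results of these data known. From each list, the 3 genes with the largest called differences per direction are named, for HFD+1B against chow and for the interaction. The likeness list holds the 5 genes best correlated with Nqo1.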

Additional observations from a re-analysis of the deposited data

Results flagged for a closer look

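In 79 groups of 4 or 5 mice, 3 held a mouse whose gap to the nearest other, as a share of the group's range, passed Dixon's 95% critical value, where chance gives about 3.95. HFD 4 was highest for the third Nfe2l2 probe (0.21 beside -0.02, share 0.98). HFD 1 was lowest for the brightest Gclm probe (-0.04 beside 0.20, share 0.876). HFD+1B 2 was lowest for Sod2 (-0.20 beside 0.18, share 0.824).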

How the results depend on the processing

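Of 1784 gene results under the alternatives, 1641 stayed on their side of the threshold without a called value changing sign (in 35 the sign changed with neither value called), 120 lost a call, 15 gained one and 8 reversed. All 8 were of Srxn1: with the mean over its probes, 0.43 in HFD against chow, 0.59 in HFD+1B against chow, 0.16 against HFD and 0.52 against 1B, and with its second probe 0.73, 1.25, 0.52 and 0.79.

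The number of genes called moved by over 1.5 times as follows, from 1 for 1B and 2 for HFD against chow, 6, 6 and 5 for HFD+1B against chow, HFD and 1B, and 0 for the interaction; the cause was not tested. Median centring gave 1 for HFD against chow and 2, Gclc and Sod2, for the interaction. The deposited log2 ratios gave 3 for HFD+1B against HFD. Cy5 alone gave 0, 0, 1, 0 and 1 for the 5 comparisons of groups. The ribosomal RNA covariate, which nearly separates HFD from the rest, gave 0 for HFD against chow and 0 for HFD+1B against HFD. The 2-fold rule gave 0, 0, 1, 1 and 1, and 1 for the interaction. The slide as a block gave 1 for the interaction, Sod2. Leaving out 1 mouse gave 1 for 1B against chow, 1 to 2 for HFD against chow, 4 to 6, 3 to 6 and 3 to 5 for HFD+1B against chow, HFD and 1B, and 0 to 1 for the interaction. Deviations from the group means had correlations from -0.13 to 0.48 between same-numbered mice, with 16 of 24 above 0.1. The 4 mice numbered 1 shared slide 1, and the highest correlation was between HFD 1 and HFD+1B 1. Replicate number and slide thus partly coincided, and mice with different numbers were not compared. With the replicate number as a block the interaction had 1 call, Sod2 (0.48, adjusted p = 0.0443). In that fit Gclc in HFD+1B against HFD and Txnrd1 against 1B gained a call and Gclm against 1B lost one. Signal over background limits Slc7a11, and the second Hmox1 probe. The single Nqo1 probe, the third Nfe2l2 probe and the second Gclm probe were also dim, with median net Cy5 signals of 71, 34 and 57.5. They were well above background on all 17 arrays.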

Other observations

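Both genes of ferritin, the iron store that NRF2 targets include, were higher than in chow in HFD and in HFD+1B, and the heavy chain gene also after ethanol on chow. Of all genes, 4.49%, 8.91% and 2.08% were called higher in these comparisons. These genes, and the others below, were picked after their values were seen. Apart from Gclc, they were not followed under the alternative settings. The heavy chain gene Fth1 was higher than in chow by 0.44 ± 0.09 (SE) after ethanol on chow, by 0.50 ± 0.09 on the diet alone and by 0.62 ± 0.09 with both (limma, adjusted p = 0.0103, 0.00268 and 9.4e-05). The light chain gene Ftl1 was higher by 0.73 ± 0.10 on the diet (adjusted p = 0.000346) and by 0.68 ± 0.10 with both (adjusted p = 9.69e-05), and its value of 0.32 ± 0.10 after ethanol on chow was not called (adjusted p = 0.108).

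Ethanol on chow, where Gclc was the single NRF2 gene called, came with larger differences in some other list genes. Alas1, the first enzyme of heme synthesis, fell by 1.89 ± 0.25 (adjusted p = 0.000203), beside -0.44 ± 0.25 on the diet alone, which was not called. Pgd rose by 2.33 ± 0.25 (adjusted p = 5.09e-05), and Cyp2a5 fell by 2.20 ± 0.32 (adjusted p = 0.000683). The exporters of conjugates Abcc2 and Abcc3 fell by 0.99 ± 0.12 and 0.84 ± 0.16 (adjusted p = 0.000139 and 0.00651).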
